A study of Mus musculus with 2 samples.

Results

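The SLC25 family is the set of mitochondrial carriers that move metabolites, nucleotides and cofactors across the inner mitochondrial membrane. Its members were taken as every gene entry whose symbol is Slc25a followed by a number, with Slc25a28, Slc25a37, Slc25a38 and Slc25a39 left out, which gave 43 of the 43346 gene entries (47 before those 4 were left out). The genes were taken by name and not by a measured value, though the choice was made with earlier results of these data known.

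Carriers of this family share a fold of repeated, related domains, each with a conserved signature, and most of them swap one substrate for another across the membrane. Together they bring phosphate and ADP in and send ATP out, carry citrate, malate and other acids between mitochondrion and cytosol, and supply the matrix with NAD, coenzyme A and amino acids. Red cell precursors build heme partly inside mitochondria, so these membranes are crossed by many intermediates while hemoglobin is made.

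Polyadenylated RNA was sequenced from both ends of its fragments in G1E-ER4, an immortalized mouse erythroid line without functional Gata1 of its own that carries a fusion of GATA1 with an estrogen receptor's ligand-binding part. The labels give 1 group, cells kept in 10 nM 17beta-estradiol for 24 h, with 2 libraries numbered as biological replicates 1 and 2. The biosample record they cite is 1 and the same, which means that their spread may be technical, and untreated cells were not analysed here. The questions asked of the carriers were how much of each these cells held, which of several related genes was the higher, and how far the libraries lay apart.

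The estimated counts summed to 70451042 in replicate 1, which was 5.09-fold the 13841487 of replicate 2, and 3 counts, the limit that a count of 0 allows, corresponded to 0.0426 and 0.217 counts-per-million (CPM). All 6 erythroid markers reached 1 TPM in both libraries, as did 2 of 3 megakaryocyte markers (summed level 5.34 and 7.60 TPM in replicates 1 and 2, with Pf4 at 0 counts), while 0 of 3 mast cell, 0 of 3 myeloid and 0 of 3 lymphoid markers did. TPM, transcripts-per-million, is a level corrected for transcript length. The adult beta globin gene Hbb-bs stood at 122878 TPM in replicate 1 and 45332 TPM in replicate 2, so the libraries differed in erythroid genes too, and the part of this in the differences below was not tested. Intervals and limits cover counting error only.

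The cells expressed a small number of carriers strongly. Of the 43 members, 20 (46.5%) reached 1 TPM in both libraries, beside 7107 of 21474 protein-coding genes (33.1%). Another 6 reached it in replicate 1 only, 2 in replicate 2 only, and 15 in neither. In RNA of many cells, fewer cells with a transcript and less of it per cell cannot be told apart. The median of the members' mean levels was 1.5 TPM, beside 0.035 TPM over the protein-coding genes. The family summed to 751 TPM in replicate 1 and 1069 TPM in replicate 2, which is 0.0910% ± 0.0225 of all TPM (SD, n = 2). The phosphate carrier Slc25a3 and the citrate carrier Slc25a1 alone made up 43.1% of the family's TPM in replicate 1 and 63.5% in replicate 2.

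**Figure D1:**
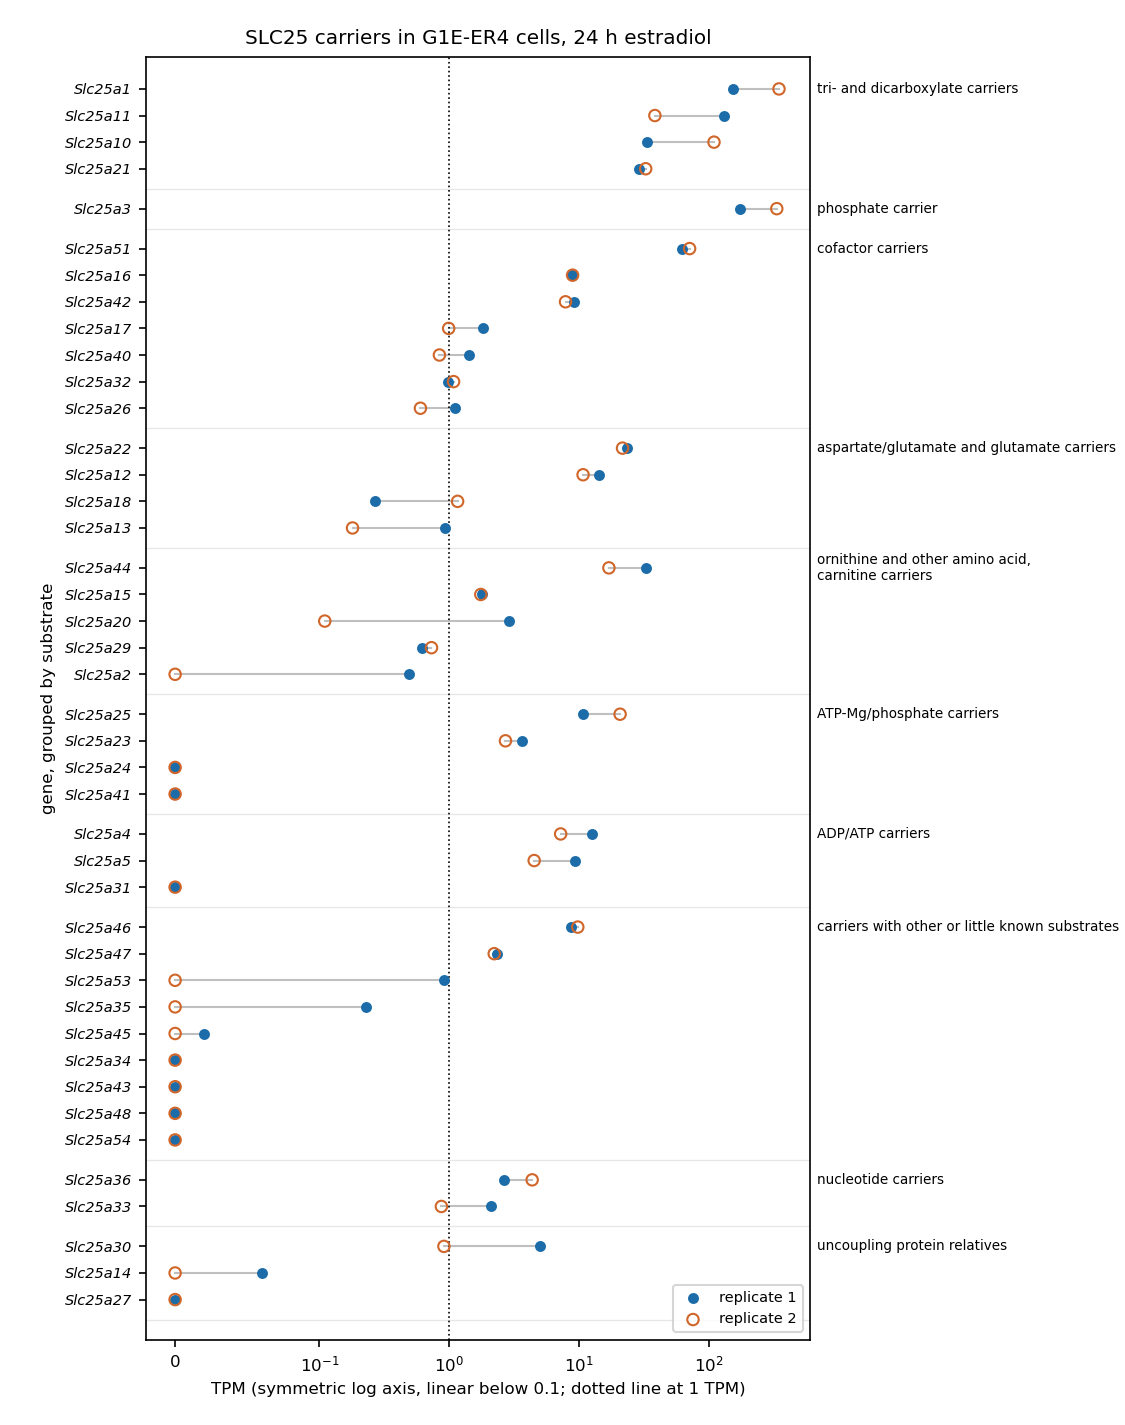
Level of 42 of the 43 carriers in TPM on a symmetric log axis, with genes in rows grouped by substrate, replicate 1 as filled points and replicate 2 as open circles. Only 8 members averaged at least 20 TPM and 8 lay at 0 in both libraries. The ADP/ATP carriers, for one, run from 0 for Slc25a31 to 12.5 TPM for Slc25a4 in replicate 1.

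Slc25a3 (ENSMUSG00000061904.8, mm10 chromosome 10, 91116574 to 91124059, minus strand) imports the phosphate needed for ATP synthesis and had the highest mean level of the 43 members. It stood at 172 TPM (20043 counts) in replicate 1 and 333 TPM (5386 counts) in replicate 2, a mean of 252 ± 114 TPM (SD, n = 2). It was the highest member in replicate 1 and came after Slc25a1 in replicate 2. The order of Slc25a3 and Slc25a1 was thus not the same in the libraries, and their means differ by far less than either spread.

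The transcripts given Slc25a3 reads were not the same in the libraries. Slc25a3-201 took 70.03% of the gene's TPM in replicate 1 and 10.53% in replicate 2. Slc25a3-206 took 16.93% in replicate 1 and 78.21% in replicate 2. Each of these coding transcripts carries an exon that the other lacks, of 122 and 125 bases, and the proteins they encode have 357 and 358 residues. In the human and bovine genes the upstream of such a pair of exons is the one used in heart and skeletal muscle, while the downstream one is used in most tissues; in mouse the exon of Slc25a3-206 is the upstream one. The exons are shown because they are the coding difference between the leading transcripts. They were read from the GENCODE M21 transcripts (GRCm38, the mm10 build; minus strand, chr10:91121922-91122043 for Slc25a3-201 and chr10:91122207-91122331 for Slc25a3-206). Capitals mark bases that differ or have no partner when one is aligned with the other.
Slc25a3-201: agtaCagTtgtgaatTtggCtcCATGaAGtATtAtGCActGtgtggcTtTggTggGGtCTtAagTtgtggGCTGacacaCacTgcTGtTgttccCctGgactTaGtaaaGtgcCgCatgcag
Slc25a3-206: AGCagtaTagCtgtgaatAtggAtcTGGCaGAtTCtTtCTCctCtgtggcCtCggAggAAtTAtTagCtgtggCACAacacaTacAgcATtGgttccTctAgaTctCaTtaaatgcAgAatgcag
The exons agree at 80 bases, 64.0% of the longer one, and their longest identical run is 7 bases, so a read inside either exon belongs to 1 of them. Apart from these exons, 274 bases lie in Slc25a3-201 alone and 0 in Slc25a3-206 alone. Reads over each exon were not analysed here, and the shares are estimates of the authors' quantification.

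The ADP/ATP carriers, which exchange the ATP made in the matrix for cytosolic ADP, were low beside the phosphate carrier. Slc25a5 (ENSMUSG00000016319.3, chromosome X, 36795651 to 36798807, plus strand), the form of proliferating and most other cells, stood at 9.24 TPM (686 counts) in replicate 1 and 4.51 TPM (56 counts) in replicate 2. Slc25a4 (ENSMUSG00000031633.4, chromosome 8, 46206797 to 46211284, minus strand), the form that leads in heart and skeletal muscle, stood at 12.5 TPM (1003 counts) in replicate 1 and 7.21 TPM (93 counts) in replicate 2. Slc25a31, the testis form, had 0 counts in both libraries. Summed, they reached 21.7 TPM in replicate 1 and 11.7 TPM in replicate 2, 2.89% and 1.10% of the family's TPM.

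Their coding sequences are close but can be told apart at read length. The stretch shown codes for the start of the carrier signature of the first repeat, from GENCODE M21 transcripts on GRCm38 (Slc25a5 chrX:36795794-36795841, plus strand; Slc25a4 chr8:46210812-46210859, minus strand; Slc25a31 chr3:40709094-40709141, plus strand), and capitals mark bases that differ from Slc25a5.
Slc25a5-201: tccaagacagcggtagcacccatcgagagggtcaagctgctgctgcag
Slc25a4-201: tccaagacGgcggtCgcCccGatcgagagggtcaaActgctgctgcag
Slc25a31-201: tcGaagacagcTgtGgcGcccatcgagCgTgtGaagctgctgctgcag
Of these 48 bases, Slc25a4 shares 43 with Slc25a5 and Slc25a31 shares 41. Over the coding sequence of 894 bases, Slc25a4 and Slc25a5 have 77.4% of bases and 89.6% of their 298 encoded residues in common, and the longest identical run between the transcripts is 20 bases. Slc25a31 is further off, with 65.6% of residues shared with Slc25a5. No stretch of 50 bases was shared between any members of the family, whereas 33.8% of those in Slc25a5 also occur in 9 other annotated genes, most of them in the pseudogene Gm5560. Gm5560 was at 0 counts in both libraries. None of the 9 had counts, but a gene without an entry in the deposited data was taken as 0.

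Which ADP/ATP carrier is called the higher turns on the transcripts counted. Over whole genes Slc25a5 lay below Slc25a4 in both libraries, with log2 ratios of -0.43 in replicate 1 and -0.67 in replicate 2 (pseudocount 0.1 TPM, mean -0.55 ± 0.17, SD, n = 2). Of Slc25a4, the retained-intron transcript Slc25a4-202 took 93.18% in replicate 1 and 98.74% in replicate 2. Protein-coding transcripts alone left 9.03 and 4.51 TPM for Slc25a5 and 0.85 and 0.09 TPM for Slc25a4, in replicates 1 and 2. On that count Slc25a5 was the higher in both, by 3.26 and 4.60 on the log2 scale (mean 3.93 ± 0.94, SD, n = 2). The count of coding transcripts alone was chosen after the values were seen.

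The transcripts behind this turn differ chiefly at the 3′ end. Slc25a4-202 shares 847 of its 1275 bases with Slc25a4-201, has 428 of intron that Slc25a4-201 lacks, and lacks the last exon of 824 bases. The quantification gave Slc25a4-202 899 counts in replicate 1 and 91.2 in replicate 2. It gave Slc25a4-201 104 in replicate 1 and 1.82 in replicate 2. With 2 libraries the smallest p of a two-sided exact permutation test over signs is 0.5, so neither direction could pass that test. Against Slc25a31, taken at its limit of 3 counts, Slc25a4 was at least 421.8-fold higher in replicate 1 and at least 40.2-fold in replicate 2 over whole genes. Its coding transcripts were at least 28.8-fold above that limit in replicate 1 and, at 0.09 TPM, under the limit of 0.179 TPM in replicate 2. Slc25a5 was at least 312.8-fold higher than that limit in replicate 1 and at least 25.1-fold in replicate 2.

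The ATP-Mg/phosphate carriers, calcium-regulated members that set the size of the matrix adenine nucleotide pool, were led by Slc25a25. It stood at 10.8 TPM in replicate 1 and 20.7 TPM in replicate 2, followed by Slc25a23 at 3.63 TPM in replicate 1 and 2.71 TPM in replicate 2. Slc25a24 and Slc25a41 had 0 counts in both libraries. Slc25a25 was at least 469.6-fold above the limit for Slc25a24 in replicate 1 and at least 148.0-fold in replicate 2. The higher TPM of Slc25a25 in replicate 2 was not matched by its scaled counts, 23.7 CPM in replicate 1 and 26.4 CPM in replicate 2. In replicate 2 a retained-intron transcript of 277 bases took 39.05% of its TPM on 13.3 counts, and in replicate 1 it had 0. Slc25a25 also overlaps Naif1 on the other strand, and the sources used here do not say whether counting used strand.

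The tri- and dicarboxylate carriers held the largest share of the family, 344 TPM in replicate 1 (45.8%) and 526 TPM in replicate 2 (49.2%), and all 4 were above 20 TPM in both libraries. Slc25a1 (ENSMUSG00000003528.10, chromosome 16, 17925223 to 17928219, minus strand) exports citrate for cytosolic acetyl-CoA. It stood at 152 TPM (11654 counts) in replicate 1 and 346 TPM (5918 counts) in replicate 2. Slc25a10 (ENSMUSG00000025792.5, chromosome 11, 120491840 to 120499187, plus strand), which exchanges malate and succinate for phosphate, stood at 33.35 TPM in replicate 1 and 109 TPM in replicate 2. Both were thus higher in replicate 2, by more than 2-fold in TPM.

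Slc25a11 (ENSMUSG00000014606.10, chromosome 11, 70644196 to 70647479, minus strand), the 2-oxoglutarate/malate carrier of the malate-aspartate shuttle, went the other way with 130.2 TPM in replicate 1 and 38.3 TPM in replicate 2. That gap lay in a short retained-intron transcript, Slc25a11-205 of 531 bases, which took 84.24% of the gene's TPM in replicate 1 and 34.33% in replicate 2. Its coding transcripts stood closer, at 20.4 TPM in replicate 1 and 24.7 TPM in replicate 2. Slc25a11 overlaps Rnf167 on the opposite strand, a gene at 123 TPM in replicate 1 and 79.0 TPM in replicate 2, and 141 of its stretches of 50 bases occur in Rnf167 transcripts as well. Reads of either gene cannot be told apart there without strand. Over whole genes Slc25a10 was below Slc25a11 in replicate 1 (log2 ratio -1.96) and above it in replicate 2 (1.51), so their order is not settled. In coding transcripts Slc25a10 was the higher in both, by 0.67 and 2.13.

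Slc25a21 (chromosome 12, 56712634 to 57197472, minus strand), the oxodicarboxylate carrier of lysine and tryptophan breakdown, was the steadiest of the 4, with 28.7 TPM in replicate 1 and 32.6 TPM in replicate 2. Its coding transcript Slc25a21-201 took 99.97% of its TPM in replicate 1 and all of it in replicate 2.

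The cofactor carriers came after these and the phosphate carrier, with 99.2 TPM in replicate 1 and 103 TPM in replicate 2, and 4 of 8 reached 1 TPM in both libraries. Slc25a51 (ENSMUSG00000045973.14, chromosome 4, 45395923 to 45408766, minus strand), the importer of NAD, made up most of this at 62.3 TPM in replicate 1 and 70.95 TPM in replicate 2. Slc25a42 and Slc25a16, both tied to coenzyme A in the matrix, were close to each other. Slc25a42 stood at 9.14 and 7.86 TPM, and Slc25a16 at 8.79 and 8.91 TPM, in replicates 1 and 2. In coding transcripts Slc25a42 was lower than Slc25a16 in both libraries, by log2 ratios of -1.15 and -0.58. Retained-intron transcripts took 57.4% of Slc25a42 in replicate 1 and 24.7% in replicate 2. A short coding transcript of 1038 bases, Slc25a16-203, took 69.07% of Slc25a16 in replicate 1 and 77.8% in replicate 2.

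Another 4 cofactor carriers lay around the 1 TPM line. They are the peroxisomal Slc25a17, the glutathione importer Slc25a40, the folate and FAD carrier Slc25a32 and the S-adenosylmethionine importer Slc25a26. Their levels ran between 0.98 and 1.82 TPM in replicate 1 and between 0.60 and 1.08 TPM in replicate 2.

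Among the glutamate carriers, over whole genes, 1 gene led each kind. Slc25a22, the chief glutamate/proton symporter, stood at 23.4 TPM in replicate 1 and 21.6 TPM in replicate 2, and its relative Slc25a18 at 0.27 and 1.16 TPM. The log2 ratio of Slc25a22 over Slc25a18 was 5.99 in replicate 1 and 4.11 in replicate 2. Slc25a18 overlaps Atp6v1e1 on the other strand, which stood at 87.4 TPM in replicate 1 and 97.8 TPM in replicate 2. In coding transcripts the ratio in replicate 2 was only 0.95. There a transcript annotated for nonsense-mediated decay took 59.49% of Slc25a22 and retained-intron transcripts 29.7%, which left 10.8% in coding transcripts.

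Of the aspartate/glutamate exchangers of the malate-aspartate shuttle, Slc25a13 (citrin) stood at 0.92 TPM in replicate 1 and 0.18 TPM in replicate 2, and Slc25a12 (aralar) at 14.2 TPM in replicate 1 and 10.7 TPM in replicate 2. Over whole genes Slc25a13 was the lower in both, with log2 ratios of -3.81 and -5.27. Very little of Slc25a12 was assigned to its coding transcript, 0.44 TPM in replicate 1 and 0.20 TPM in replicate 2. In replicate 1 the decay transcript Slc25a12-207 took 90.81%, although all its 2392 bases also lie in the coding transcript of 6351 bases. In replicate 2 a processed transcript, Slc25a12-205, took 75.40%, and it had 0 in replicate 1. In coding transcripts the ratio of Slc25a13 over Slc25a12 was 0.92 in replicate 1 and -0.10 in replicate 2, so the order there changed between the libraries.

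**Figure D2:**
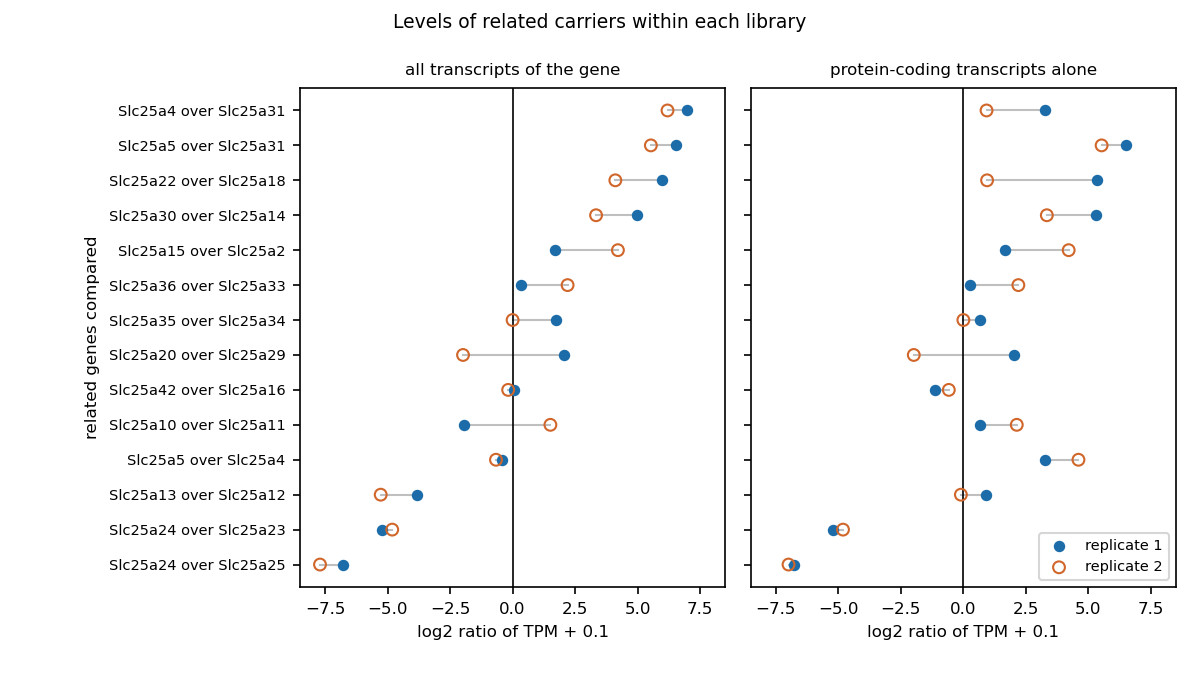
Log2 ratio of TPM between related carriers (pseudocount 0.1), over all transcripts of each gene on the left and protein-coding transcripts alone on the right, with replicate 1 as filled points and replicate 2 as open circles. Slc25a5 over Slc25a4 lies below 0 in both libraries on the left (-0.43 and -0.67) and above 0 in both on the right (3.26 and 4.60).

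Of the ornithine, carnitine and other amino acid carriers, Slc25a44 (ENSMUSG00000050144.9, chromosome 3, 88410498 to 88425139, minus strand), which imports branched-chain amino acids, was the highest. It stood at 33.0 TPM (7741 counts) in replicate 1 and 17.0 TPM (628 counts) in replicate 2. The ornithine carrier Slc25a15 stood at 1.79 TPM in replicate 1 and 1.75 TPM in replicate 2, above its relative Slc25a2 at 0.49 TPM in replicate 1 and 0 counts in replicate 2. The carnitine-acylcarnitine carrier Slc25a20, which brings fatty acids in for oxidation, was at 2.89 TPM (327 counts) in replicate 1 against 0.11 TPM (2 counts) in replicate 2. The basic amino acid carrier Slc25a29 reached 0.62 TPM in replicate 1 and 0.73 TPM in replicate 2. Slc25a20 was therefore above Slc25a29 in replicate 1 (log2 ratio 2.05) and below it in replicate 2 (-1.98).

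The pyrimidine nucleotide carriers were both low. Slc25a36 stood at 2.63 TPM in replicate 1 and 4.35 TPM in replicate 2, and Slc25a33 at 2.09 TPM in replicate 1 and 0.87 TPM in replicate 2. Slc25a36 was the higher in both libraries, by 0.32 and 2.20 on the log2 scale. The uncoupling protein relatives were nearly limited to Slc25a30, at 4.97 TPM in replicate 1 and 0.91 TPM in replicate 2. Slc25a14 had 4 counts in replicate 1 and 0 in replicate 2, and Slc25a27 had 0 in both.

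Of the 9 members with other or little known substrates, 2 reached 1 TPM in both libraries. Slc25a46, an outer membrane protein of mitochondrial dynamics, stood at 8.67 TPM in replicate 1 and 9.77 TPM in replicate 2. Slc25a47, which is best known from liver, stood at 2.34 TPM in replicate 1 and 2.22 TPM in replicate 2. Slc25a53 had 102 counts in replicate 1 and 0 in replicate 2, and its coding transcripts reached only 0.05 TPM. Slc25a35 and Slc25a45 had 15 and 3 counts in replicate 1 and 0 in replicate 2. Slc25a34, Slc25a43, Slc25a48 and Slc25a54 had 0 counts in both.

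Across the related genes compared, 14 comparisons could be made over whole genes, and 10 gave the same sign in both libraries. The comparisons share members, so they are not independent. In coding transcripts 11 had the same sign, and Slc25a5 over Slc25a4 was the only comparison with 1 sign in both libraries over whole genes and the other sign in both over coding transcripts. None was tested, since an exact test over the signs of 2 libraries cannot reach the threshold.

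Among the 11 members with a mean of at least 10 TPM, the leading transcript was annotated as protein-coding for most in each library. Of these 11, 3 (Slc25a11, Slc25a12 and Slc25a22) had under 50% of their TPM in coding transcripts. Over the 4693 protein-coding genes at that level it was 25.6%, a similar share. The median coding share was 89.7% over these members and 98.1% over those genes. The same transcript led in both libraries for 3 of 11 members, Slc25a1, Slc25a10 and Slc25a21, beside 66.5% of 3700 genes. At a minimum of 5 TPM it was 7 of 15 members, beside 65.7% of 4576 genes. For Slc25a44 the leading transcript was Slc25a44-201 in replicate 1 (82.00%, and 9.43% in replicate 2) and Slc25a44-203 in replicate 2 (90.57%, and 2.48% in replicate 1), although these coding transcripts share 3428 bases of 3577 and 3429.

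**Figure D3:**
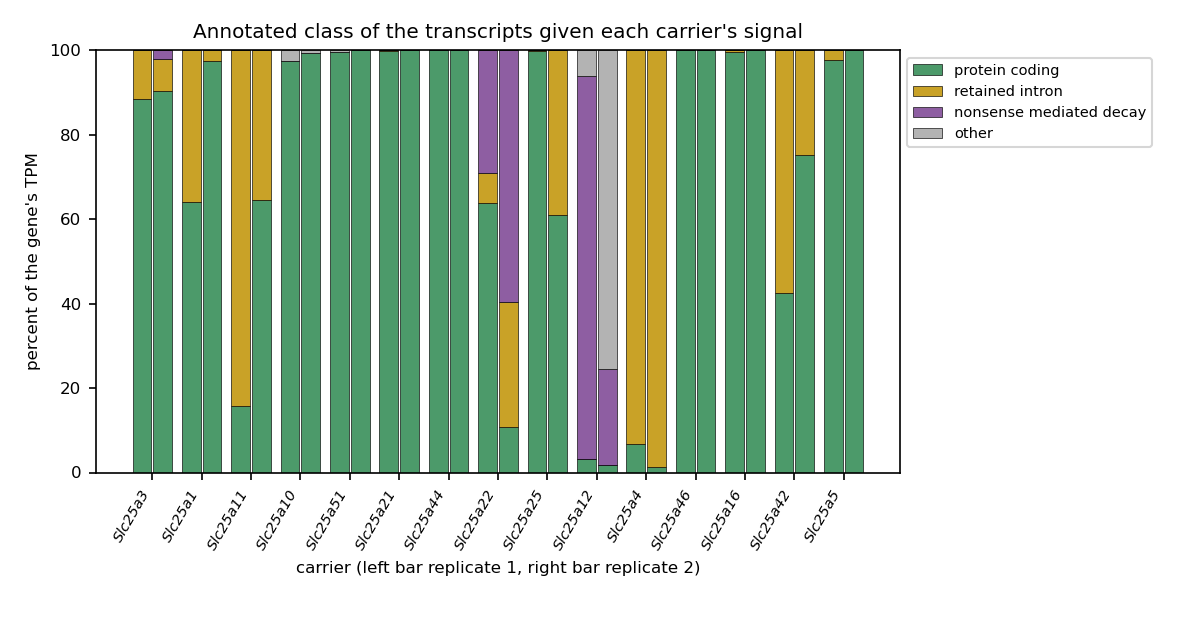
Percent of each gene's TPM in transcripts of each annotated class, for 15 carriers with a mean of at least 5 TPM in order of that mean, left bar replicate 1 and right bar replicate 2. Retained-intron transcripts take most of Slc25a4 in both libraries (93.18% and 98.74%) and most of Slc25a11 in replicate 1 alone (84.24%), while Slc25a10, Slc25a21, Slc25a44 and Slc25a46 are almost wholly coding.

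Between the libraries, 8 of the 29 members whose mean CPM reached 1 (27.6%) lay at least 2-fold apart at an adjusted p under 0.05, in a two-sided exact binomial test on scaled counts with Benjamini-Hochberg adjustment over all genes tested. The same was true of 47.8% of all genes tested, and the difference between these shares was not tested. The test compares these 2 libraries and no conditions. The 5 members higher in replicate 1 were Slc25a12, Slc25a13, Slc25a20, Slc25a30 and Slc25a33, beside 29.8% of all genes called in that direction. Of these, Slc25a13 and Slc25a20 passed the minimum of 1 CPM through replicate 1 alone, with 0.498 and 0.166 CPM in replicate 2. The 3 higher in replicate 2 were Slc25a1, Slc25a10 and Slc25a51, beside 18% of all genes. The median log2 ratio, replicate 1 over replicate 2, was 0.015 over the members tested and 0.19 over all genes tested, and the median of its size was 0.68 and 0.95. Scaled by total counts, the split was 10 higher in replicate 1 and 2 higher in replicate 2 of 29 members, beside 50.5% of all genes called in either direction. The median over all genes then moved to 0.61. With TMM scaling and a mean CPM of at least 10, the split was 1 higher in replicate 1 and 3 higher in replicate 2 of 16 members, beside 43.9% of all genes called.

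Among members with a mean of at least 1 CPM, those called in opposite directions differed in level. Slc25a1, Slc25a10 and Slc25a51 were among the highest of the family, with CPM of 144, 52.7 and 120 in replicate 1 and of 491, 192 and 283 in replicate 2. Their scaled counts were 3.41-fold, 3.64-fold and 2.36-fold higher in replicate 2. Of those higher in replicate 1, only Slc25a12 had a mean above 10 CPM, at 27.4 CPM in replicate 1 and 12.8 CPM in replicate 2, and it was 2.14-fold apart. The other 4 had at most 17 counts in replicate 2, where Slc25a33 had 17, Slc25a30 had 16, Slc25a13 had 6 and Slc25a20 had 2. For Slc25a20 the ratio of scaled counts was 24.4 (exact 95% interval 6.69 to 202). The largest adjusted p of the 8 was 9.14e-04, for Slc25a33 (2.13-fold, exact binomial test with Benjamini-Hochberg adjustment).

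**Figure D4:**
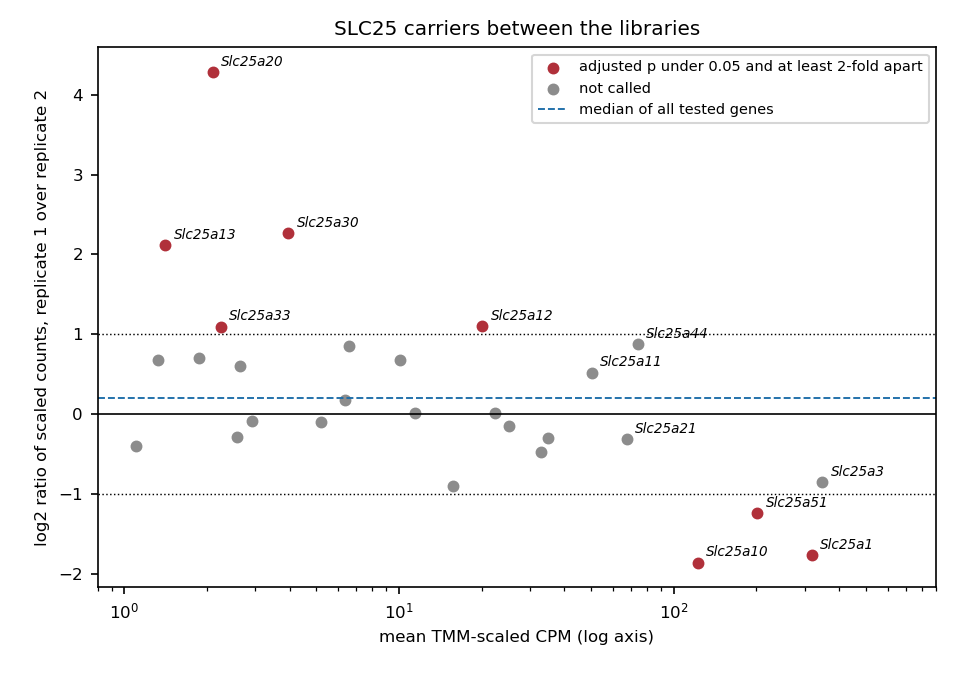
Log2 ratio of scaled counts, replicate 1 over replicate 2, against the mean scaled CPM on a log axis for 28 of the 29 members tested, with called members in red, dotted lines at 2-fold and a dashed line at the median of all tested genes (0.19). Called members at low level lie above 0, and Slc25a1, Slc25a10 and Slc25a51 at high level lie below it. Of the former, Slc25a13 and Slc25a20 passed the minimum of 1 CPM through replicate 1 alone.

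TPM and scaled counts did not give the same picture of every carrier. Slc25a51 was 1.14-fold higher in replicate 2 in TPM and 2.36-fold in scaled counts. Its effective length, the number of positions where a fragment can start, was 2258 bases in replicate 1 and 4308 bases in replicate 2, since a transcript of 718 bases took 44.78% in replicate 1 and none in replicate 2. Slc25a11 was 3.40-fold higher in replicate 1 in TPM and 1.43-fold in scaled counts, with effective lengths of 534 bases in replicate 1 and 1165 bases in replicate 2. For Slc25a10 the measures were close, with 3.28-fold in TPM and 3.64-fold in scaled counts, both higher in replicate 2.

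Base composition moved with these measures to a small degree. Over the 26 members with a mean of at least 1 TPM, Spearman's rho between the GC content of the longest coding transcript and the level was 0.40, beside 0.31 over 7972 protein-coding genes at that level. Over all 43 members it was 0.13. Between GC content and the log2 ratio of replicate 1 over replicate 2, rho was -0.19 over the 29 members tested and -0.24 over 8846 genes. The points share their library and its depth, and the part of base composition in the results above was not tested.

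Members of the family under other symbols and other routes into mitochondria set the scale. Ucp2, an uncoupling protein of the same fold, stood at 3079 TPM in replicate 1 and 1896 TPM in replicate 2, which is 4.10 and 1.77 times the sum of the 43 carriers, with 1114 and 1300.2 TPM of it in coding transcripts. Ucp1 had 0 counts in both libraries and Ucp3 had 2 and 1 counts. Mtch1, a relative in the outer membrane that helps insert proteins there, stood at 123 TPM in replicate 1 and 239.9 TPM in replicate 2, and Mtch2 at 15.5 and 12.2 TPM. Of 20 such genes, 12 reached 1 TPM in both libraries and 5 of 14 tested were called between them, Mtch1 and Vdac3 higher in replicate 2 and Mpc1, Sfxn2 and Sfxn3 higher in replicate 1.

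The highest genes of the other lists spread over a wide range. The outer membrane channel Vdac2 stood at 192 TPM in replicate 1 and 191 TPM in replicate 2. The pyruvate carrier subunit Mpc2 stood at 91.2 TPM in replicate 1 and 72.3 TPM in replicate 2. Its coding transcripts held 86.9 TPM in replicate 1 but only 5.37 TPM in replicate 2. The calcium uniporter subunit Smdt1 stood at 222 TPM in replicate 1 and 133 TPM in replicate 2. Sfxn1, which imports serine, stood at 10.04 TPM in replicate 1 and 5.61 TPM in replicate 2.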

How the data were processed

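The 2 libraries are polyadenylated RNA of G1E-ER4 cells (mm10, GENCODE M4 annotation, quantified from alignments to the transcriptome, per the text deposited with the tables). The aligner, the quantification tool, read filters and the use of strand do not appear in the sources used here. The deposited estimated counts need not be whole and are not scaled. The deposited TPM values and the deposited FPKM values are corrected for effective length. The percent of a gene's TPM in each transcript is the authors' deposited value. Symbols, transcript classes, positions and sequences came from GENCODE M21 (GRCm38), matched by identifier without its version. Spike-in and transfer RNA entries were left out of the library sizes.

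Members and lists were chosen with earlier results of these data known. Levels are TPM in each library or mean ± SD; a member was detected with at least 1 TPM in both. Between libraries, counts were rounded, scaled by TMM (edgeR 4.0.16) and tested, where the mean CPM was at least 1, with a two-sided exact binomial test and Benjamini-Hochberg adjustment, called with 2-fold or more and an adjusted p under 0.05 (prior count 0.5). No model with replicates was fitted, as there is 1 group. The step was tested on simulated counts with counting error alone. That check does not cover other spread between libraries. Values are given for members with a mean of at least 20 TPM, for related genes compared, for members called with a mean CPM of at least 10, and for some other members named after their values were seen. The values of 1 member that this takes in are not reported here, though it is part of the counts and sums. Alternatives were posterior means, other minimum levels and folds, TPM without globin and mitochondrially encoded genes, a pseudocount of 1, TMM-scaled CPM, DESeq2 1.42.0 size factors, total counts, and leaving out each library. Python 3.11.15, pandas 2.3.3, numpy 2.4.6, scipy 1.17.1, matplotlib 3.10.9 and R 4.3.3 were used.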

Additional observations from a re-analysis of the deposited data

How the results depend on the processing

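No paired analysis was possible because the labels give 1 group. In protein-coding transcripts alone, a choice made after the data were seen, the log2 ratio of Slc25a5 over Slc25a4 became 3.93 in place of -0.55, and Slc25a13 over Slc25a12 became 0.41 and Slc25a10 over Slc25a11 1.40, while Slc25a4 over Slc25a31 became 2.09 in place of 6.58. In TMM-scaled CPM, which are not corrected for length, the median member stood at 2.64 CPM, and 3 ratios turned, Slc25a20 over Slc25a29 to -0.19, Slc25a10 over Slc25a11 to 1.02 and Slc25a42 over Slc25a16 to 0.96. The family took 0.136% of counts, beside 0.0910% of TPM. Members at least 2-fold apart numbered 4 of 16 with a mean CPM of at least 10, beside 43.9% of all genes, and 15 of 29 were 1.5-fold apart, beside 66.9%. The same transcript led in 7 of 15 members at a minimum of 5 TPM, beside 65.7% of 4576 genes. By library, members at 1 TPM numbered 22 to 26, their median level was 1.08 to 2.09 TPM, the family share 0.0751% to 0.107%, and Slc25a5 over Slc25a4 -0.67 to -0.43. Leaving out each library in turn also turned single ratios, Slc25a20 over Slc25a29 from -1.98 to 2.05, Slc25a10 over Slc25a11 from -1.96 to 1.51 and Slc25a42 over Slc25a16 from -0.18 to 0.056. Counts that need both libraries have no value with 1 left out. The cause of the differences between settings was not tested. In replicate 2, 3 counts corresponded to between 0.0527 and 0.303 TPM, depending on the member, so levels in that range lie at the counting limit.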
